A study of Homo sapiens with 6 samples.

Results

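The machinery that makes and uses small silencing RNAs was examined in HK-2, an immortalized human proximal tubular cell line. Its 10 genes were chosen by name: *DROSHA*, *DGCR8*, *XPO5*, *DICER1*, *TARBP2*, *AGO1*, *AGO2*, *AGO3*, *AGO4* and *TNRC6A*. They were found among the 57905 genes of the table, and all 10 were among the 15343 genes that passed the filter on low counts. RNA-seq was performed 48 h after transfection. In 3 libraries the HK-2 cells had received pooled siRNAs against INO80, a chromatin remodeling ATPase, and in the other 3 a non-targeting pool (control siRNA). Both groups therefore carried foreign siRNA, and no untransfected cells were sequenced.

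MicroRNAs and siRNAs use much of the same machinery. In the nucleus, the Microprocessor, made of the RNase DROSHA and its RNA-binding partner DGCR8, cuts a hairpin out of the primary transcript, and XPO5 (exportin 5) carries the hairpin to the cytoplasm. There DICER1, with its partner TARBP2, cuts the hairpin to a short duplex, and 1 strand of it is loaded into an Argonaute protein (AGO1 to AGO4). Argonaute finds messages that pair with this strand, and TNRC6 scaffold proteins recruit the deadenylases that shorten the message tail. Synthetic siRNAs are short duplexes already, so they enter at the Argonaute step. AGO2 is the paralog best known for slicing a fully paired target.

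Libraries were made from poly(A) RNA, which does not hold mature microRNAs, so the values below are of the messages of the machinery and not of its products. Between 16829273 and 20311588 reads were counted on genes in a control siRNA library, and between 20678008 and 23784599 in an INO80 siRNA library. Depth therefore did not overlap between the groups, and its part in the results was not tested. Of 8 epithelial and renal markers, 6 stood at 1 FPKM or more in every library (CDH1 and PAX2 did not), but only 2 of 10 proximal tubule markers did, GGT1 and MME. LRP2, SLC22A6 and SLC22A8 were listed at 0 throughout. None of 8 markers of other cell types reached 1 FPKM, and 6 of them were at 0. In a bulk sample, a lower value cannot be told apart from fewer cells that hold the RNA.

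*INO80* itself was measured first. Its CPM (counts per 1e+06 counted reads, scaled by TMM) were 46.3, 49.3 and 54.0 in control replicates 1, 2 and 3 and 13.8, 12.0 and 14.2 in the INO80 siRNA replicates. The level was 0.267-fold that of the controls (log2 fold change -1.90, standard error 0.10, adjusted p = 0.000161). The knockdown was past the threshold in all 15 alternative fits.

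Some of the machinery's own transcripts carry microRNA hairpins, and some carry a 7-base sequence described below, and these are shown here because they lie in the genes described below. Mature sequences are from RefSeq (GRCh38.p14), with the seed, bases 2 to 8, in capitals. Both arms of miR-3173 lie in an intron of DICER1 (chr14:95137923-95137982, minus strand), and both arms of miR-1306 in coding sequence of DGCR8 (chr22:20086072-20086129, plus strand).
hsa-miR-3173-5p: uGCCCUGCcuguuuucuccuuu
hsa-miR-3173-3p: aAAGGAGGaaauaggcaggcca
hsa-miR-1306-5p: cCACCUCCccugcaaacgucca
hsa-miR-1306-3p: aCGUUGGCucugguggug
The 4 seeds differ from each other. MIR3173, MIR1306 and MIR3618, which lies in the 5′ UTR of DGCR8, each had 0 counts in all 6 libraries. MIR1306 and MIR3618 overlap DGCR8 on its own strand, and how shared reads were counted was not examined. Their 0 counts therefore do not show absence.

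A 7-base sequence, AACGGCA, was searched for because earlier results of these data had singled it out. Its relation to expression was not tested here. On the transcript strand it was present in 3 of the 10 genes (AGO2, XPO5 and TNRC6A), against 1535 of 19061 reference transcripts (8.05%, 1 MANE transcript per gene, any overlap between matches allowed). A longer transcript has more places for a match, and the 10 transcripts ran from 1510 bases (TARBP2) to 19660 bases (AGO3). Length was not taken into account, so the 2 shares do not show an excess. In AGO2 it was in the 3′ UTR. In XPO5 (exon 3 of 32, chr6:43572549-43572578, minus strand, hg38) and TNRC6A (exon 5 of 25, chr16:24776975-24777004, plus strand, hg38) it was in the coding sequence, shown with the 7 bases in capitals.
XPO5: gtttcggtggAACGGCAtgtctcgattgga
TNRC6A: ccaactctaatAACGGCActtccacagcaa
The log2 fold changes of the 3 genes that hold it were 0.04 for AGO2, 0.01 for XPO5 and -0.10 for TNRC6A, none past the threshold. A match in the letters is a description and does not show a site of silencing.

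Across the 10 genes, folds between INO80 siRNA and control siRNA ran from 0.890 (DICER1) to 1.16 (TARBP2). None of the 10 passed an adjusted p of 0.05 in the edgeR test, where 1.75% of all tested genes did, and DESeq2, which called 4.58% of the genes it adjusted, also called none of the 10. Without adjustment, p was under 0.05 for 3 of them (TARBP2, DICER1 and DROSHA) and for 16.4% of all tested genes. The log2 fold changes lay between -0.17 and 0.21, with a median of 0.02 against 0.01 over all tested genes. Libraries with the same replicate number were taken as pairs across groups, a pairing that the labels do not state. A fit that also took the number as a block called 4 of the 10, TARBP2, DROSHA and AGO1 higher and DICER1 lower, and it called 24.8% of all tested genes. The groups did not overlap in CPM for these same 4 genes, and they did not overlap for 22.8% of all tested genes. DESeq2 with the block called 1, DICER1, and 13.9% of the genes it adjusted.

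**Figure D1:**
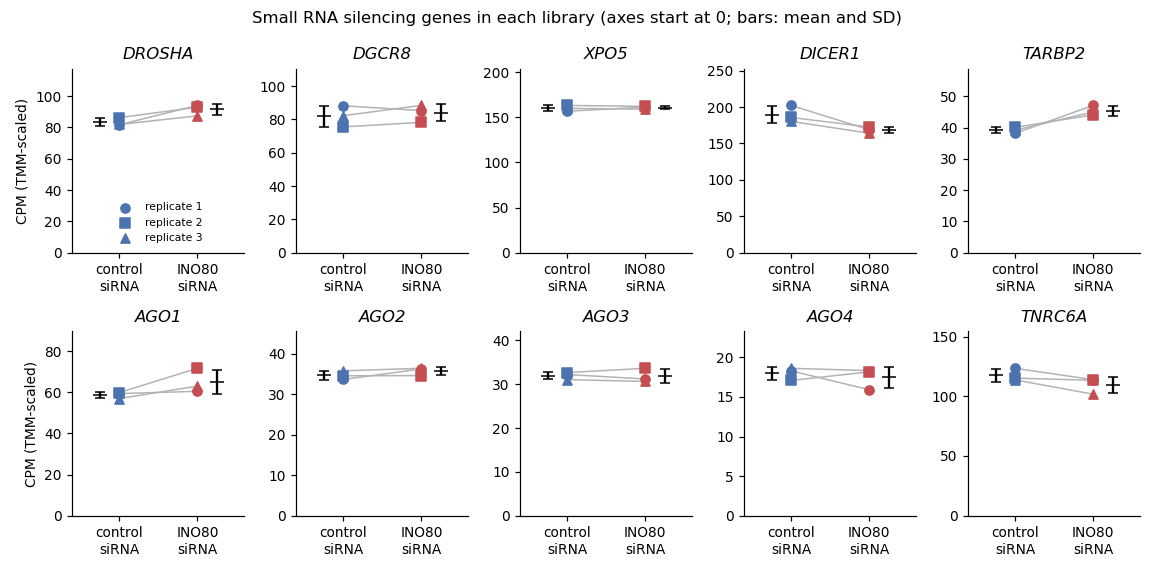
Each panel plots the TMM-scaled CPM of 1 gene in the 3 control siRNA libraries (blue) and the 3 INO80 siRNA libraries (red). Grey lines join libraries with the same replicate number, and black bars give the mean and SD. The groups separate for DROSHA, DICER1, TARBP2 and AGO1, and the values of the other 6 genes overlap.

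DROSHA (ENSG00000113360, chr5:31400604-31532303 in GRCh37, minus strand) is the RNase III enzyme of the Microprocessor. It was at 81.7, 86.2 and 81.9 CPM in control replicates 1, 2 and 3, and at 94.1, 92.9 and 87.4 CPM under INO80 siRNA. All 3 INO80 siRNA libraries were above all 3 controls, and the closest values were 86.2 and 87.4 CPM. The fold was 1.10 (log2 fold change 0.13, standard error 0.06, adjusted p = 0.303). With the replicate block the adjusted p was 0.0265, but DROSHA was past the threshold in none of the blocked fits that left out 1 pair.

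DGCR8 (ENSG00000128191, chr22:20067755-20099400 in GRCh37, plus strand) binds the hairpin for DROSHA. Its levels were 88.1, 75.5 and 82.2 CPM in the controls and 85.3, 78.2 and 88.4 CPM under INO80 siRNA. The groups overlapped, and replicate 2 was the lowest library of both. The log2 fold change was 0.04, with a 95% interval of -0.14 to 0.21 (adjusted p = 0.87). Its annotated span shares 12 bases with TRMT2A on the opposite strand, for which 680 to 1008 reads were counted per library. In the FPKM values, the ratio of DROSHA to DGCR8 was 0.871, 1.07 and 0.936 in the controls and 1.04, 1.12 and 0.929 under INO80 siRNA. These ratios overlapped, and the difference in log2 ratio was 0.10 (exact two-sided permutation test, p = 0.5, where the smallest p that 3 against 3 can give is 0.1). Leaving out 1 library moved this difference to between 0.03 (without control replicate 1) and 0.18 (without control replicate 2), and it was 0.04 without INO80 replicate 2 and 0.17 without INO80 replicate 3.

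XPO5 (ENSG00000124571, chr6:43490072-43543812 in GRCh37, minus strand), the exporter of hairpin precursors, varied least of the 10 among the controls. Its control libraries stood at 157, 163 and 160 CPM and the INO80 siRNA libraries at 161, 162 and 159 CPM. The values were interleaved, and the coefficient of variation among controls was 2.00%. The log2 fold change of 0.01 had a 95% interval of -0.11 to 0.12 (adjusted p = 0.965), which as a fold runs from 0.927 to 1.09. POLR1C overlaps 7252 bases of the XPO5 span on the opposite strand and had 652 to 955 counts per library. Whether the counting used strand is not given in the sources used here, so reads from a shared stretch could not be told apart without it.

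DICER1 (ENSG00000100697, chr14:95552565-95624347 in GRCh37, minus strand) cuts hairpins to duplexes. In control replicates 1, 2 and 3 it was at 202, 186 and 180 CPM, and under INO80 siRNA at 169, 173 and 164 CPM. Every INO80 siRNA library was below every control, and the difference was seen in all 3 pairs (log2 ratios of -0.26, -0.11 and -0.14). Mean levels were 189 ± 11.4 CPM for control siRNA (SD, n = 3) and 168 ± 4.26 CPM for INO80 siRNA. The fold was 0.890, from 0.807 to 0.981 (log2 fold change -0.17, standard error 0.06, adjusted p = 0.22). With the block the adjusted p was 0.00203, and DICER1 stayed past the threshold when any 1 pair was left out. Fits without a pair keep few libraries to estimate the spread and were not always stricter, so this does not show stability.

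TARBP2 (ENSG00000139546, chr12:53894705-53900215 in GRCh37, plus strand) is the double-stranded RNA-binding partner of DICER1. It had the largest fold of the 10 and moved the other way from DICER1 with the block. Its levels were 38.2, 40.1 and 39.2 CPM in the controls and 47.1, 44.1 and 45.0 CPM under INO80 siRNA. The groups did not overlap. The fold was 1.16, from 1.05 to 1.28 (log2 fold change 0.21, standard error 0.06, adjusted p = 0.144). With the block the adjusted p was 0.00645, and leaving out any 1 pair kept it past the threshold, while DESeq2 with the block did not call it. As for DICER1, the fits without a pair do not show stability. In FPKM the separation was the same, with 9.09, 9.86 and 9.64 in the controls and 11.2, 11.0 and 11.2 under INO80 siRNA.

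**Figure D2:**
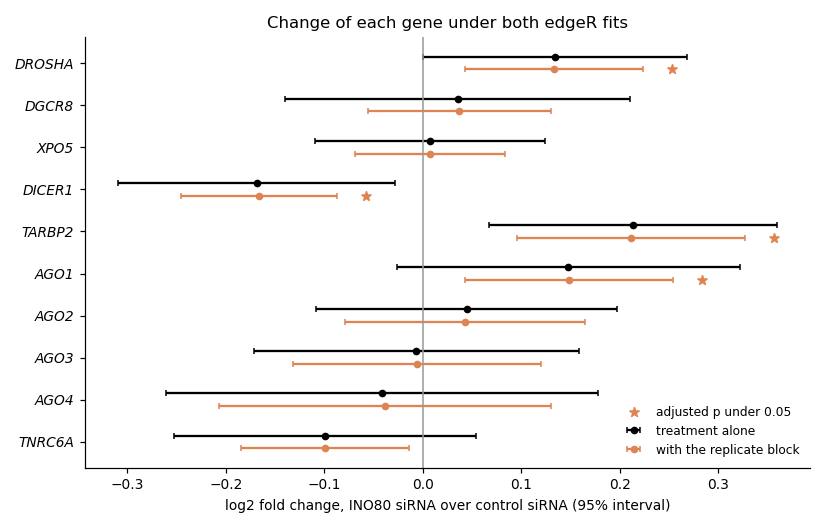
Points give the log2 fold change of each gene (INO80 siRNA over control siRNA) with its 95% interval from edgeR, in the fit with treatment alone (black) and with the replicate block (orange). Stars mark an adjusted p under 0.05, which only DROSHA, DICER1, TARBP2 and AGO1 reached, each in the blocked fit.

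Among the Argonautes, 3 genes lie side by side on the plus strand of chromosome 1 in GRCh37, in the order AGO4 (ENSG00000134698, 36273773-36323491), AGO1 (ENSG00000092847, 36335409-36395211) and AGO3 (ENSG00000126070, 36396319-36538101). AGO1 was at 59.4, 59.9 and 57.0 CPM in the controls and at 60.5, 71.7 and 63.0 CPM under INO80 siRNA. The groups just failed to overlap, at 59.9 and 60.5 CPM, and in FPKM they did overlap. INO80 replicate 2 was the highest library. This gave a log2 fold change of 0.15 with a standard error of 0.08 (adjusted p = 0.389), and of 0.07 without INO80 replicate 2. With the block the adjusted p was 0.0343, and of the blocked fits without a pair only that without pair 1 kept it past the threshold.

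The neighbours of AGO1 did not separate. AGO3 was at 32.2, 32.6 and 31.0 CPM in the controls and 31.2, 33.6 and 30.6 CPM under INO80 siRNA (log2 fold change -0.01, 95% interval -0.17 to 0.16, adjusted p = 0.981). AGO4 had 18.3, 17.1 and 18.6 CPM in the controls and 15.9, 18.2 and 18.3 CPM under INO80 siRNA, where replicate 1 was the lowest of all 6 (log2 fold change -0.04, 95% interval -0.26 to 0.18, adjusted p = 0.881). Whether AGO1 differed in its change from AGO3 or AGO4 was not tested.

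AGO2 (ENSG00000123908, chr8:141541264-141645718 in GRCh37, minus strand), the slicer, was at 33.6, 34.5 and 35.7 CPM in the controls and 36.2, 34.6 and 36.4 CPM under INO80 siRNA. The groups overlapped, since INO80 replicate 2 lay below control replicate 3. The log2 fold change was 0.04, with a 95% interval of -0.11 to 0.20 (adjusted p = 0.799, and 0.656 with the block).

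TNRC6A (ENSG00000090905, chr16:24741016-24838953 in GRCh37, plus strand) is the scaffold that binds Argonaute and recruits deadenylases. Its levels were 123, 115 and 114 CPM in the controls and 114, 113 and 102 CPM under INO80 siRNA. The INO80 siRNA library was the lower one in all 3 pairs (log2 ratios of -0.12, -0.02 and -0.16), but the groups overlapped. Its log2 fold change of -0.10 had a standard error of 0.07 (adjusted p = 0.517, and 0.0832 with the block), and it was -0.05 without INO80 replicate 3 and -0.06 without control replicate 1.

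Levels of different genes were compared per exonic length, in FPKM. In the controls XPO5 was highest at 18.7 ± 0.691 FPKM (SD, n = 3), above 82.7% of all tested genes, and DICER1 followed at 15.3 ± 0.646. DGCR8 at 11.1 ± 0.696 and DROSHA at 10.7 ± 0.464 overlapped. TARBP2 at 9.53 ± 0.397 and TNRC6A at 9.33 ± 0.240 overlapped as well. The Argonautes were the lowest, each separate from the next: AGO2 at 7.15 ± 0.338, AGO1 at 4.54 ± 0.123, AGO4 at 2.46 ± 0.111 and AGO3 at 1.50 ± 0.0436 FPKM. AGO3 was above 27.3% of tested genes. All 10 varied less among controls (coefficients of variation from 2.00% to 7.72% in CPM) than the median tested gene, at 9.37%, though a well-counted gene has less counting error than a low one.

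This order depends on the length by which the authors divided. For AGO2 the table gives 4824 bases, which is 0.331 times the length of its reference transcript (14595 bases, GENCODE 44), and for TARBP2 it gives 4090 bases, 2.71 times that of the reference transcript (1510 bases). With the same counts and reference lengths, AGO2 at 2.36 and AGO4 at 2.46 FPKM in the controls would overlap, both below AGO1 at 4.27. Reads were not recounted over the reference transcripts, so AGO2 may be too low in this calculation. The lengths for AGO1, AGO3, AGO4 and DICER1 were between 0.940 and 1.18 times those of their transcripts. Those for DROSHA, DGCR8, XPO5 and TNRC6A were further off, from 1.44 times (DROSHA) to 1.62 times (DGCR8). At reference lengths these genes and TARBP2 would therefore rise relative to DICER1. Their order at reference lengths was not worked out, so the order given above holds only at the lengths in the table. Comparisons of 1 gene between groups do not use the length.

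Summed over the 4 paralogs, Argonaute was at 15.2, 15.8 and 16.0 FPKM in the controls and 15.4, 17.1 and 16.7 FPKM under INO80 siRNA. The groups overlapped (means 15.7 ± 0.393 and 16.4 ± 0.868, SD, n = 3, exact two-sided permutation test, p = 0.3), though INO80 siRNA was higher in all 3 pairs (exact sign-flip permutation over pairs, p = 0.25, the smallest that 3 pairs can give). After TMM scaling the sums just separated, with a highest control of 15.856 and a lowest INO80 siRNA library of 15.862 FPKM (exact permutation p = 0.1, the smallest possible). The unscaled difference of 0.753 FPKM ranged from 0.412 without INO80 replicate 2 to 1.24 without INO80 replicate 1. AGO2 made up 44.6, 45.6 and 46.7% of the sum in the controls and 47.3, 42.6 and 46.0% under INO80 siRNA (exact permutation p = 0.9). AGO1 made up 29.5, 29.6 and 27.9% in the controls and 29.6, 33.1 and 29.8% under INO80 siRNA, a mean difference of 1.84 percentage points (exact permutation p = 0.2). The shares of AGO4 and AGO3 were 15.7% and 9.59% in the controls and 14.7% and 9.16% under INO80 siRNA (exact permutation p = 0.2 and 0.3). No share could reach an exact p under 0.1 in this design. These shares rest on the lengths in the table. A calculation at reference transcript lengths was added after seeing the data. In it AGO2 would make up 22.1% of the sum in the controls and 21.9% under INO80 siRNA (exact permutation p = 0.9). AGO1 would make up 39.8% and 42.3% (exact permutation p = 0.1, the smallest possible). It divides the same counts by a longer AGO2 length, without reads from the added bases. AGO2 may therefore be too low in it, and which paralog holds the largest share cannot be told.

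**Figure D3:**
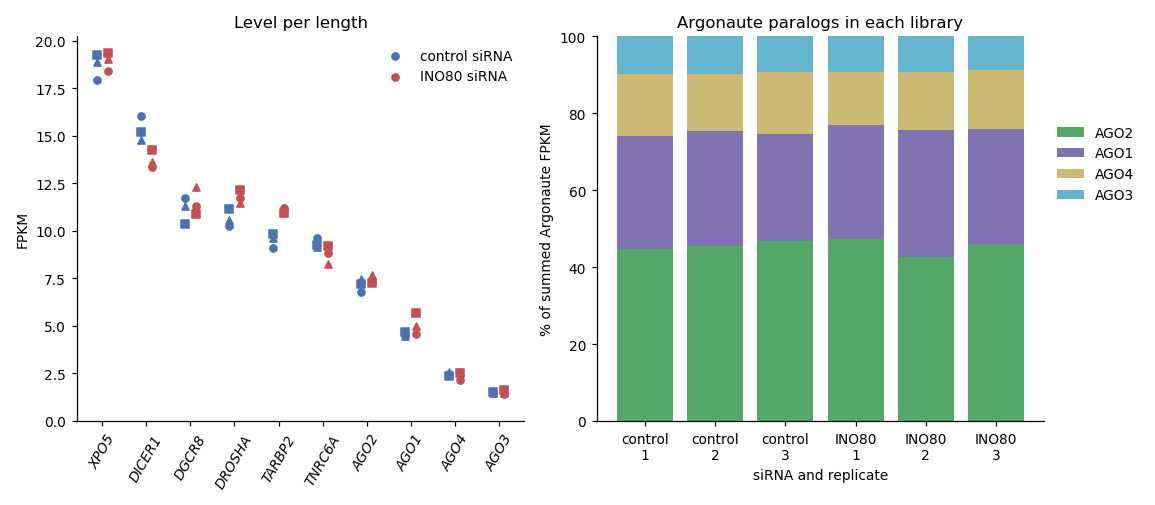
Left, FPKM of each gene in the control siRNA (blue) and INO80 siRNA (red) libraries, ordered by control mean, with marker shapes for replicates 1 (circle), 2 (square) and 3 (triangle). Right, the percentage of summed Argonaute FPKM held by each paralog in each library. AGO2 holds 42.6 to 47.3% at the exonic lengths given in the table. The same counts divided by reference transcript lengths would give 20.0 to 23.2%, which may be too low.

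Other genes of the pathway were followed in 10 lists with 101 genes, of which 99 were in the table and 88 passed the filter. None was past the threshold in the edgeR test without the block (smallest adjusted p 0.0727, for ZSWIM8). Unadjusted p was under 0.05 for 15 of the 88, beside 16.4% of all tested genes, and DESeq2 called 3 (ZSWIM8, CTDSP2 and NCBP1), beside 4.58%. With the block 27 of the 88 were called, 16 higher and 11 lower, a share of 30.7% against 24.8% of all tested genes. Of the 27, 11 were called in each of the 3 blocked fits that left out a pair, and 9 of these also by DESeq2 with the block (NCBP1, ADAR, LIMD1, ELAVL1, PABPC1, DDX6, ZSWIM8, MIR4435-1HG and CTDSP2). Here too, the fits without a pair do not by themselves show stability. The median log2 fold change of the 88 was 0.02. Their median control level was 9.87 FPKM against 4.61 FPKM over all tested genes, and the shares called were not matched for level. Counts per list are given as descriptions, without a set test.

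Upstream, the list for primary transcript processing had 4 of 10 genes called with the block, beside 24.8% of all tested genes. Of the 4, 3 were higher (DDX5, ADAR and KHSRP) and 1 was lower, NCBP1. NCBP1, a subunit of the nuclear cap-binding complex, was at 99.8, 101 and 103 CPM in the controls and 80.5, 90.3 and 83.6 CPM under INO80 siRNA. These groups did not overlap (log2 fold change -0.26, standard error 0.06, adjusted p = 0.0874, and 8.36e-05 with the block). KHSRP, which binds some microRNA precursors, had a log2 fold change of 0.12 (adjusted p = 0.359, and 0.0109 with the block, lost without pair 3), while the abundant RNA-binding protein gene HNRNPA1 had -0.0042 (0.986 and 0.934). In export and import, none of 5 genes was called by either fit. RAN, the GTPase that exportins need, stood at 752 ± 18.2 and 783 ± 19.3 CPM and XPO1 at 431 ± 14.9 and 432 ± 14.7 CPM (SD, n = 3). IPO8, an import receptor, had the largest log2 fold change of that list, 0.08.

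Beside dicing, RBM3 and TSNAX were called with the block out of 4 tested partners, where 24.8% of all tested genes were called. RBM3, an RNA-binding protein known from the cold response, had a log2 fold change of -0.11 (adjusted p = 0.403, and 0.0189 with the block). TSNAX, which forms the C3PO endonuclease with TSN, had 0.20 (0.322 and 0.0162), and TSN had -0.09 (0.596 and 0.0859). The calls of RBM3 and TSNAX were lost without pair 2, without pair 3 and in DESeq2 with the block.

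For Argonaute loading and helpers, 4 of 13 genes were called with the block, 2 in each direction, beside 24.8% of all tested genes. HSP90AA1 and HSP90AB1, the cytosolic HSP90 chaperones, had log2 fold changes of 0.01 and -0.04 and were not called. LIMD1, a scaffold that binds Argonaute, was at 29.8, 26.7 and 24.6 CPM in the controls and 22.5, 22.1 and 19.9 CPM under INO80 siRNA. These groups did not overlap (log2 fold change -0.33, standard error 0.10, adjusted p = 0.141, and 0.000879 with the block).

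Below the scaffold, TNRC6B and TNRC6C, the paralogs of TNRC6A, were lower under INO80 siRNA in all 3 pairs, with log2 fold changes of -0.12 and -0.35, but neither was called (adjusted p = 0.649 and 0.326, and 0.112 and 0.0984 with the block). TNRC6C was at 6.59, 5.97 and 5.12 CPM in the controls and 4.13, 4.76 and 4.95 CPM under INO80 siRNA, without overlap. The groups of TNRC6B overlapped. All 3 TNRC6 genes thus had a lower mean under INO80 siRNA, and none passed the threshold in either fit. Of the 15343 tested genes, 3967 were lower in all 3 pairs, and the groups did not overlap for 22.8%.

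In deadenylation and translational repression, 6 of 16 genes were called with the block, 4 higher and 2 lower, beside 24.8% of all tested genes. PABPC1, the cytoplasmic poly(A)-binding protein, was at 1591, 1454 and 1495 CPM in the controls and 1857, 1621 and 1630 CPM under INO80 siRNA. The groups did not overlap (log2 fold change 0.17, standard error 0.07, adjusted p = 0.284, and 0.000167 with the block). PAN2, a deadenylase subunit, had a log2 fold change of 0.30 (adjusted p = 0.329, and 0.0156 with the block, lost without pair 3), and CNOT1, the scaffold of the CCR4-NOT deadenylase, had -0.07 (0.664 and 0.102). For decapping and decay the count was 4 of 10, 2 in each direction, beside the same 24.8%. DCP1A, a decapping cofactor, had 0.30 (0.27 and 0.00637, lost without pair 1). The exonuclease XRN2 had 0.02 and LSM14A had -0.10, and neither was called.

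Among genes for tailing, trimming and turnover, 2 of 9 tested were called with the block, beside 24.8% of all tested genes. Of the 2, ZSWIM8 was higher and ZCCHC11, a terminal uridylyltransferase, was lower. ZSWIM8 is the substrate receptor of a ubiquitin ligase that removes Argonaute when a microRNA pairs extensively with its target. It was at 99.7, 90.1 and 93.9 CPM in the controls and 126, 112 and 113 CPM under INO80 siRNA. All INO80 siRNA libraries were above all controls (log2 fold change 0.31, standard error 0.07, adjusted p = 0.0727, and 2.68e-06 with the block). PNPT1, a mitochondrial exoribonuclease, had a log2 fold change of -0.05 (0.695 and 0.455). LIN28B was at 0 in every library.

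The PIWI pathway, which makes small RNAs of the germline, was detected only in part at this depth. PIWIL1, PIWIL3, DDX4 and TDRD1 had 0 counts in all 6 libraries. A single library at 0 still allows an expected count of up to about 3, and 6 together allow less. Absence is therefore not shown. Of the 10 genes, 4 passed the filter. Of these, PIWIL4 had the largest log2 fold change, 0.44 (adjusted p = 0.292, and 0.0692 with the block), at 3.04 ± 0.447 and 4.10 ± 0.461 CPM. HENMT1, a small RNA methyltransferase, had -0.12 and PLD6 had 0.20, and neither was called. In the controls HENMT1 was at 13.3 ± 2.39 FPKM and PLD6 at 2.43 ± 0.397 FPKM (SD, n = 3).

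Of 20 transcripts that host microRNAs, 15 were tested and 5 were called with the block, beside 24.8% of all tested genes. Of the 5, 3 were higher (CTDSP2, MIR22HG and VMP1) and 2 lower (MIR4435-1HG and PANK1). CTDSP2, a phosphatase gene with miR-26a-2 in an intron, was at 43.7, 54.3 and 46.2 CPM in the controls and 58.2, 63.6 and 61.8 CPM under INO80 siRNA (log2 fold change 0.35, standard error 0.09, adjusted p = 0.102, and 1.9e-05 with the block). These groups did not overlap. VMP1, which hosts miR-21, had a log2 fold change of 0.10 (0.71 and 0.0386, lost without pair 2 or 3), and MCM7, which hosts the miR-106b cluster, had -0.02 (0.906 and 0.724). A host message need not follow the mature microRNA, which was not measured.

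**Figure D4:**
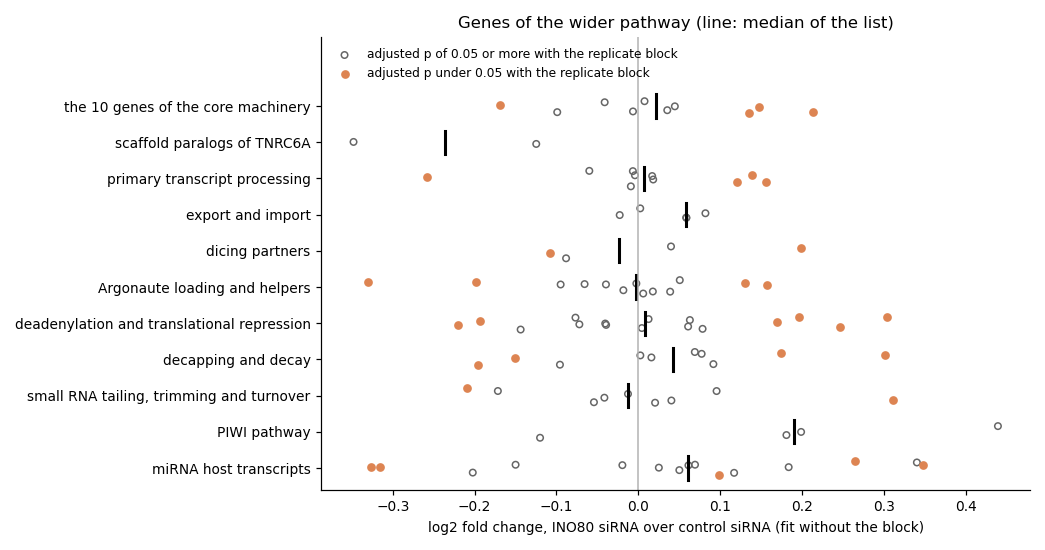
Each point is 1 tested gene, placed by its log2 fold change (INO80 siRNA over control siRNA, fit without the block) in the 10 core genes and in each of 10 pathway lists, with the list median as a black line. Filled orange points had an adjusted p under 0.05 with the replicate block (edgeR), and lie on both sides of 0. They are 4 of the 10 core genes and 27 of the 88 others, beside 24.8% of all tested genes. Vertical scatter within a list has no meaning.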

How the data were processed

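Poly(A)-selected, directional RNA-seq libraries were made from 3 control siRNA and 3 INO80 siRNA samples of HK-2 cells. The authors deposited 1 table with raw read counts per gene and FPKM (fragments per kilobase of exon per 1e+06 counted reads). The submitters' processing notes name HISAT2 2.0.1, HTSeq and hg19, while the paper's methods name ELAND and hg38. Coordinates in the table are GRCh37. The strand setting of the counting is not given in the sources used here.

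Counts were filtered with filterByExpr and tested with the quasi-likelihood test of edgeR 4.0.16 (R 4.3.3) after TMM scaling, with treatment as the term and Benjamini-Hochberg adjustment over 15343 genes. A gene was called at an adjusted p under 0.05. FPKM served to compare genes, and their sums and shares were tested by exact permutation. Nothing in the labels says that the libraries came from separate cultures, so p-values measure the spread between these samples, which may be technical. The replicate numbers of the labels were checked as pairs: deviations from the group means correlated at 0.581, 0.365 and 0.360 for libraries of the same number, and at most at 0.152 for different numbers. Deviations sum to 0 within a group, so positive values for the same number lower those for different numbers. Replicate 1 against another number gave -0.361 to -0.397, and 2 against 3 gave 0.129 and 0.152, so 2 and 3 were told apart less clearly. The labels do not state a pairing. On these correlations the numbers were taken as pairs, and the values with the replicate block are given beside the results. Alternatives were RLE scaling, no filter, DESeq2 1.42.0, the block, and each library or pair left out. A blocked fit without a pair has few libraries left to estimate the spread and was not always stricter. In edgeR the adjusted p of INO80 was 8.66e-17 with the block and 3.89e-144 with the block and without pair 1. RLE scaling or DESeq2 with the block, and Argonaute sums at reference transcript lengths, were added after seeing the data. The edgeR and DESeq2 steps were tested on simulated data.

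The genes and lists were chosen with earlier results of these data known. Named in the text are the 10 genes, INO80, called pathway genes of the fit without the block, and of each list the 2 genes of highest mean FPKM and the 1 of largest fold change. Genes called with the block or by DESeq2 and not covered by this rule were named after their values were seen. Symbols MIR100HG and MIRLET7BHG were not matched in the table. Transcript sequences were from GENCODE 44 (hg38) and microRNAs from RefSeq.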

Additional observations from a re-analysis of the deposited data

How the results depend on the processing

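Without the replicate block, the count of called genes among the 10 was 0 under every alternative, including each library left out. With the block it was 4, and 3, 2 and 2 when pair 1, 2 or 3 was left out. RLE scaling with the block gave 4 and DESeq2 with the block gave 1. Among the 88 other pathway genes, 0 were called without the block, but 2 without the filter on low counts (ZSWIM8 and CTDSP2) and 3 by DESeq2. With the block 27 were called, 31, 17 and 19 without pair 1, 2 or 3, 27 with RLE scaling and 11 by DESeq2. The causes of these differences between fits were not tested. Of all tested genes 24.8% were called with the block, and DESeq2 with the block called 13.9% of those it adjusted. Such shares were not worked out for RLE scaling, for no filter, or for a library or pair left out. The direction of AGO1, AGO2, DICER1, DROSHA, TARBP2 and TNRC6A was the same in all 15 alternatives, though TNRC6A ran from -0.127 to -0.0469 and AGO1 from 0.0730 to 0.197 with 1 library left out.

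AGO3, AGO4, XPO5 and DGCR8, with log2 fold changes near 0, changed sign in some. AGO3 was at 0.00449 without the filter, 0.00843 and 0.00153 with the block and without pair 1 or 3, and between -0.0478 and 0.0209 with 1 library left out. AGO4 was at 0.0289 with the block and without pair 1, and between -0.0781 and 0.0208 with 1 library left out. XPO5 was at -0.0127 with the block and without pair 1, and between -0.00678 and 0.0223 with 1 library left out. DGCR8 was between -0.0209 and 0.0901 with 1 library left out. The difference in the AGO2 share was -0.362 percentage points and ran from -1.37 to 0.989 with 1 library left out, positive without control replicate 3 (0.179) or INO80 replicate 2 (0.989). Of 10 genes, groups that did not overlap numbered 4 in CPM, 3 in FPKM, and 4 to 6 with 1 library left out. The share of all tested genes was 22.8% in CPM with all 6 libraries, and it was not worked out for the other settings. Groups separate more easily with 1 library fewer, so the higher counts say nothing about the 10 genes.

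With 3 libraries in a group, the exact tests of sums and shares cannot go below p = 0.1, nor below 0.25 over 3 pairs.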

Other observations

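LIN28A, an RNA-binding protein that blocks the processing of let-7 precursors, was chosen after its values were seen. Its counts were 13, 77 and 98 in control replicates 1, 2 and 3 and 16, 92 and 120 under INO80 siRNA, so that both libraries numbered 1 were low while the groups had nearly equal means (3.21 ± 2.19 and 3.19 ± 2.15 CPM, SD, n = 3 each). The log2 fold change was -0.01 (edgeR, adjusted p = 0.997). The difference between replicate 1 and the others was not tested.

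The table also lists 1334 microRNA genes with an exonic length of at most 200 bases. Of these, 1063 had 0 counts in every library and 61 had at least 10 counts over all 6 libraries together. These counts are of poly(A) RNA mapped to hairpin loci and do not measure mature microRNAs.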
